A study of Mus musculus with 20 samples.

Results

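Control-only regions are stretches of accessible chromatin that were called as ATAC-seq peaks in all 3 hematopoietic stem cell (HSC) libraries titled Control and in none of the 3 libraries titled 6bKO. They were found by merging the peaks of the 6 lists that shared at least 1 bp. Of 149774 merged regions, 431 met this rule, which is 0.288%. The regions were chosen by the deposited ATAC peak calls, so their strength and their absence from the lists titled 6bKO are given as a description, with no test. RNA counts came from other libraries that the rule did not use, and only they were tested.

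The study compared HSCs of mice carrying the Vav Cre driver, which acts throughout the blood system, with Kdm6b either intact (Kdm6b+/+) or floxed on both alleles (Kdm6b fl/fl). All mice were labelled C57BL/6 and 8 weeks old, and every group, the controls included, carried the Cre driver. Each of the 3 Control and 3 Kdm6b-KO RNA libraries came from HSCs of 3 male and 3 female mice whose marrow was pooled, and was labelled a biological replicate. Each ATAC library was made from 10000 sorted HSCs, and whether these came from separate pools is not stated in the labels. The genotype label reads wild-type for all 6 ATAC libraries, so the groups of the ATAC lists rest on their titles alone.

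ATAC-seq uses a transposase that inserts into DNA not covered by nucleosomes, so that peaks mark promoters, enhancers and other bound elements. Kdm6b removes methyl groups from lysine 27 of histone H3, a mark laid down by Polycomb repressive complex 2. In blood, promoters of widely used genes tend to be open in most cell types, whereas enhancers away from gene starts are open in fewer of them. RUNX, ETS and GATA proteins are families of transcription factors that bind many such elements in HSCs.

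The lists titled Control held 47450, 44739 and 62125 peaks and those titled 6bKO held 63682, 53692 and 69729, so the Control lists were shorter on the whole. No read depth came with the ATAC lists, and the number of peaks a caller finds moves with depth. RNA libraries held 6793873 to 19336121 counts assigned to genes. All 12 genes of an HSC list, such as Kit, Procr and Mecom, were detected well enough to test, and their summed level was 4391 to 6890 CPM (read counts scaled to library size) in Control and 5092 to 5241 CPM in Kdm6b-KO replicates 1 and 2, with 4976 CPM in replicate 3. RNA of 8 neutrophil genes, all tested, summed to 3590, 1167 and 2063 CPM in Control against 4222, 191.5 and 189.3 in the Kdm6b-KO libraries, so Kdm6b-KO replicate 1 stood apart from the other 2.

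A promoter window in the table used here runs from 250 bases before to 50 after a gene start. Control-only regions overlapped 21 such windows of 19 genes, in 19 regions. The sequences of 5 of these windows are shown, those of the protein-coding genes whose regions ranked best, because there the Control-only peaks meet a gene start. All 5 lie wholly within their region. They come from RefSeq on GRCm38.p6, the assembly of mm10, and are written 5′ to 3′ along the gene's strand, at chr11:71230684-71230983 (minus strand) for Nlrp1b, chr11:87793534-87793833 (plus) for Mpo, chr11:102407468-102407767 (minus) for Slc25a39, chr17:36869324-36869623 (plus) for Trim10 and chr17:33637806-33638105 (plus) for Pram1. Capitals mark matches on either strand to the ETS letters GGAAGT, the RUNX letters TGTGGT, the GATA letters AGATAA or the AP-1 letters TGANTCA.
Nlrp1b: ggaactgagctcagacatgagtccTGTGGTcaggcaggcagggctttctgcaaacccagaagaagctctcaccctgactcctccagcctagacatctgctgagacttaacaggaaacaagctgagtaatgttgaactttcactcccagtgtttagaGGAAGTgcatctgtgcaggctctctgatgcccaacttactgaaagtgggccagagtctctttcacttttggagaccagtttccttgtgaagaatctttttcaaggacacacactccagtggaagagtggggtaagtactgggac
Mpo: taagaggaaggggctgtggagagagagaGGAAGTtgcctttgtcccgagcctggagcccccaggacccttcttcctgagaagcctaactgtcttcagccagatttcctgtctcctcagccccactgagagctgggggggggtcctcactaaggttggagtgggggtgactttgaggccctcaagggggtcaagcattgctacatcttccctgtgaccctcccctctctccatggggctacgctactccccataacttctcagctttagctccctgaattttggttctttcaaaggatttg
Slc25a39: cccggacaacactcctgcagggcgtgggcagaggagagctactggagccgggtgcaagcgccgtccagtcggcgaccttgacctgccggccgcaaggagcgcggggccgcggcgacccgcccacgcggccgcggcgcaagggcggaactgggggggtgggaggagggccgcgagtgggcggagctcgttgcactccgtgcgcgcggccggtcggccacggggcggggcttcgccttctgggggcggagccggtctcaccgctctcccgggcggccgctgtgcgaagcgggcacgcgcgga
Trim10: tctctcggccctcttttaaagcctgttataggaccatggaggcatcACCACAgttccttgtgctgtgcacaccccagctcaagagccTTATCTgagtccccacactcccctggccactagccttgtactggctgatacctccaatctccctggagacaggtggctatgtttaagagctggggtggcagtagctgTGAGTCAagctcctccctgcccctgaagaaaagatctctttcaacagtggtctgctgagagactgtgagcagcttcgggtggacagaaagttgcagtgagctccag
Pram1: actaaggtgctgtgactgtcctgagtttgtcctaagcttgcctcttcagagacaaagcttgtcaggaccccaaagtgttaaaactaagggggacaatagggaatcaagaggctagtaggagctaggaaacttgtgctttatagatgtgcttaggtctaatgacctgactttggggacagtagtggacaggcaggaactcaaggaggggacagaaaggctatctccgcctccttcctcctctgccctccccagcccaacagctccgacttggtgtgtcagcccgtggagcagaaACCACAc

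The printed windows differed in base composition, from 0 CpG in Nlrp1b to 45 CpG and 77.3% GC in Slc25a39. Over the 21 windows the median CpG count was 4 and the median GC content 51.7%. These were 22 and 62.3% in the 9540 windows overlapped by regions present in all 6 lists and 7 and 52.7% in all 32851 windows. In windows of regions found only in lists titled 6bKO they were 8.5 and 55.8%. In those of regions in the 3 Control lists and 1 list titled 6bKO they were 16 and 60%. The RUNX letters occurred in 9 of the 21 windows (42.9%), against 16.8% of all windows, 12.4% of those in regions of all 6 lists and 15.8% of those in regions found in the 3 Control lists and 1 list titled 6bKO. The GATA letters occurred in 5 (23.8%), against 11.2% of all windows and 4.98% of those in regions of all 6 lists. The ETS letters occurred in 8 (38.1%), against 23.8% and 30.0%, and the AP-1 letters in 2 (9.52%), against 7.81% and 4.21%. The E-box letters CANNTG occurred in 12 (57.1%), against 72.3% and 60.5%. A base could count towards more than 1 motif. A match is a run of letters, not a bound site, and 21 windows are few.

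Within the lists that held them, Control-only regions were mostly of middling to low strength. Peaks were ranked by the authors' q within each list, with 0% for the strongest. The median rank of the 431 regions was 60.5% in Control 1, 57.2% in Control 2 and 48.2% in Control 3. Regions present in all 6 lists had medians of 21.8%, 23.1% and 16.4% in the same lists. Regions in the 3 Control lists and exactly 1 list titled 6bKO lay between, at 53.4%, 53.5% and 38.3%. Among the strongest 10% of peaks were 3 Control-only regions in Control 1, 2 in Control 2 and 2 in Control 3. The authors' fold enrichment at the peak had medians of 4.91, 5.17 and 5.18 in Control 1, 2 and 3, against 7.39, 8.42 and 10.3 for regions in all 6 lists.

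**Figure D1:**
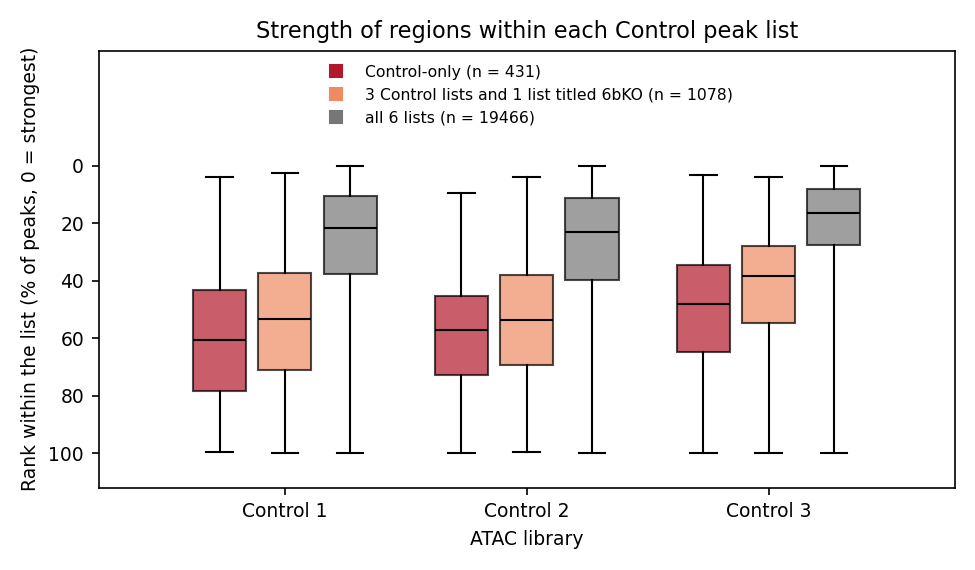
Rank of peaks within each Control list (percent of that list's peaks, 0 at the top being the strongest) for Control-only regions, regions in the 3 Control lists and 1 list titled 6bKO, and regions in all 6 lists. Boxes span the quartiles with the median as a line, and whiskers reach the lowest and highest values; the Control-only medians of 60.5%, 57.2% and 48.2% are the weakest of the 3 classes in every list.

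The regions were narrow. Their width ranged from 182 to 2013 bp with a median of 407 bp, close to the 387.5 bp of the 1948 regions found only in the 3 lists titled 6bKO and below the 667 bp of regions in all 6 lists. In 425 of the 431, each Control list contributed a single peak. The summits of the 3 Control peaks lay a median of 88 bp apart at their widest, against 57 bp in regions of all 6 lists, and they fell within 50 bp of each other in 28.5% and 46.0%. The widest region, of 2013 bp at chr9:110422539-110424551, lay at the end of Ngp, a neutrophil granule protein gene.

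**Figure D2:**
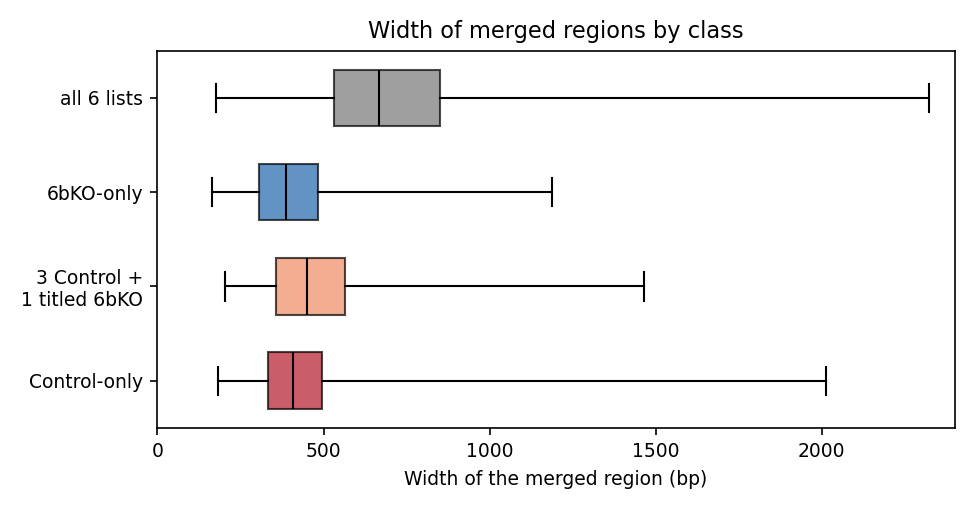
Width of merged regions in bp by class. Boxes span the quartiles with the median as a line, and whiskers reach the narrowest and widest region; the Control-only median of 407 bp is close to that of regions found only in lists titled 6bKO (387.5 bp) and below that of regions in all 6 lists (667 bp).

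Many regions sat close to the threshold that defined them. In 194 of the 431, the weakest of the 3 Control peaks had a −log10 q under 5, where the lowest value in any list was 2.00. The member nearest that limit, at chr14:71333995-71334421, had 3.09, 4.61 and 2.14 in Control 1, 2 and 3. Just outside the rule, the region at chr7:66145667-66146649 had 6.75, 5.71 and 6.85 in the Control lists and 2.00 in the list titled 6bKO 1. A list titled 6bKO had a peak within 1000 bp of 100 of the 431 regions (23.2%), and the median gap to the closest such peak was 3257 bp. Of the 1078 regions in the 3 Control lists and 1 list titled 6bKO, 915 were in that of 6bKO 3, the longest list. Without that list 1354 regions would have met the rule, and without Control 1, 2 or 3 it would have been 2289, 1170 or 701.

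With every list shortened to its strongest 44739 peaks, the length of the shortest, 731 regions were Control-only and 1486 were found only in lists titled 6bKO, against 431 and 1948 as deposited. The number of regions on either side therefore moved with list length.

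Control-only regions lay mainly inside genes and away from gene starts. The middle of the 3 summits fell inside an annotated gene span in 299 of 431 (69.4%, 95% Wilson interval 64.9 to 73.5%). This compares with 62.3% of regions in all 6 lists and 62.6% of those only in lists titled 6bKO. With a −log10 q of at least 5 in every list, the Control-only share was 66.9% (interval 61.5 to 71.8%), which includes both values. The middle lay within 1 kb of either end of a gene in 56 of the 431 (13.0%, interval 10.1 to 16.5%). That share was 46.2% in all 6 lists, 18.8% in the 3 Control lists and 1 list titled 6bKO, and 12.0% in the lists titled 6bKO alone. Outside chromosome 18, which the promoter table does not cover, 38 of 413 (9.20%) were within 1 kb of a tabulated gene start. The median distance to such a start was 18.7 kb. In regions of all 6 lists these values were 40.5% and 5.20 kb. They were 7.42% and 23.3 kb in the lists titled 6bKO alone. In the 3 Control lists and 1 list titled 6bKO they were 12.6% and 14.4 kb. The table lacks some starts, so these distances are upper limits, and the spans do not tell exons from introns. The nearest counted gene was protein-coding for 354 regions, a long noncoding RNA for 36 and a pseudogene for 27.

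Chromosomes 1 to 19 and X each held between 7 and 34 Control-only regions. Chromosome 11, which carries Kdm6b, held 34 (7.89%), close to its 7.91% of regions in all 6 lists. The regions on chromosome 11 ranked better than the others, with a median of the mean rank over the 3 Control lists of 44.5% against 57.1%. Of the 10 best-ranked Control-only regions 5 were on chromosome 11, and of the best 50 there were 11 (22%). Whether regions of the other classes also rank better on chromosome 11 was not tested. Within 10 Mb of Kdm6b lay 9 of the 431 (2.09%), against 1.81% of the regions in all 6 lists.

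**Figure D3:**
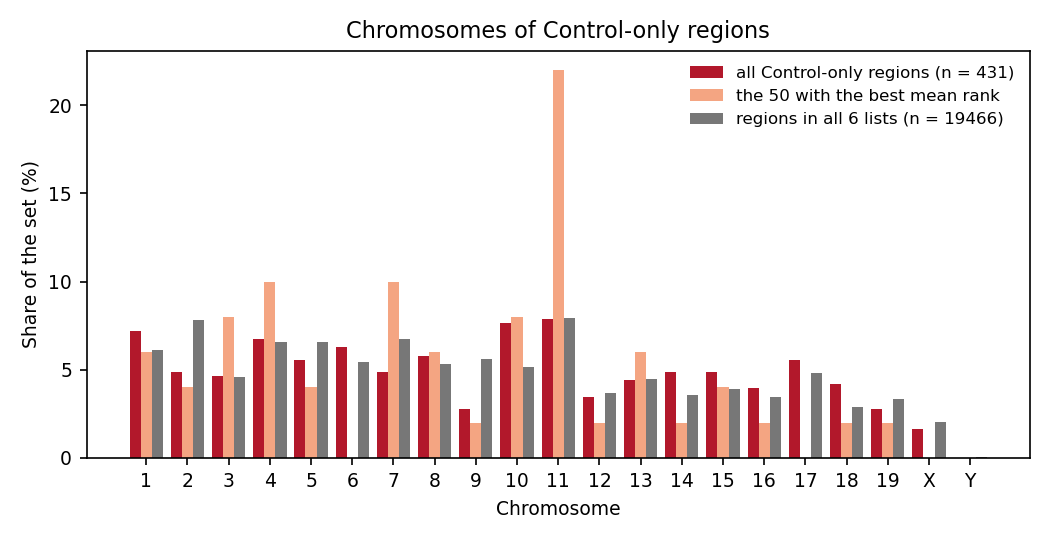
Share of regions on each chromosome in percent, for all 431 Control-only regions, the 50 of them with the best mean rank, and the 19466 regions in all 6 lists. Chromosome 11 holds 7.89% of Control-only regions and 22% of the best 50.

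The top-ranked region lay in the Nlrp1 cluster on chromosome 11, which encodes inflammasome sensors and is about 1.84 Mb from the middle of Kdm6b. At chr11:71251295-71251777, within the pseudogene Nlrp1c-ps, the peak had a −log10 q of 30.1, 48.4 and 227.9 in Control 1, 2 and 3 and a fold enrichment of 12.1, 13.9 and 19.8. Another region, at rank 6, at chr11:71230573-71231073, covered a tabulated start of Nlrp1b, whose sequence is printed above, with its summit 134 bp upstream. This region lay inside the annotated gene span (chromosome 11, 71152574 to 71242514), whose high-coordinate end is further upstream. Its −log10 q was 21.9, 19.9 and 68.0 and its fold enrichment 10.6, 9.04 and 12.2. The closest peak in any list titled 6bKO was 85531 bp away from the Nlrp1b region and 85892 bp from that in Nlrp1c-ps. A region at chr11:71144493-71145100, at the high-coordinate end of Nlrp1a, was present in all 6 lists, with a −log10 q of 9.21, 29.5 and 47.6 in the lists titled 6bKO. Nlrp1 genes are near copies of each other, and the labels do not say how the authors treated reads that align to several places.

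Nlrp1b RNA was higher in Kdm6b-KO, the group whose ATAC lists lacked the peak at this tabulated start. Its level was 0.307, 1.4 and 0.950 CPM in the Control libraries and 13.8, 9.37 and 14.0 CPM in the Kdm6b-KO libraries, with no overlap between groups. The log2 fold change was 3.76 (SE 0.46, edgeR adjusted p = 0.000834), and the call held in all 12 alternatives run for it, with adjusted p from 2.75e-13 to 0.0177. Nlrp1c-ps, the pseudogene under the strongest region, had 0 counts in each Control library and 2, 5 and 11 counts in Kdm6b-KO replicates 1, 2 and 3, too few to test. Both values are uncertain, since a read may match more than 1 of these copies.

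Kdm6b itself held a Control-only region, at rank 42. At chr11:69401233-69401616, it lay 2.89 kb inside the low-coordinate end of the gene (chromosome 11, 69398508 to 69420367), with a −log10 q of 8.45, 8.57 and 62.9 and a fold enrichment of 5.10, 4.52 and 8.04 in Control 1, 2 and 3. Of the 6 merged regions in the gene, 3 were in all 6 lists, among them one at the other end, chr11:69417926-69419263. Another was in the 3 Control lists and 2 of those titled 6bKO, and 1 was in Control 3 alone. The labels do not name the exons flanked by loxP, so whether this region falls among them was not tested. Kdm6b RNA was 92.0, 282.5 and 220.6 CPM in Control against 142.5, 202.1 and 191.3 in the Kdm6b-KO libraries, and the groups overlapped (log2 fold change -0.15, or 0.0092 when scaled by library totals, edgeR adjusted p = 0.882). These are whole-gene counts, which do not check the deletion. Kdm6a, the paralog on chromosome X, had no Control-only region within 50 kb and a log2 fold change of -0.23 (adjusted p = 0.590).

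**Figure D4:**
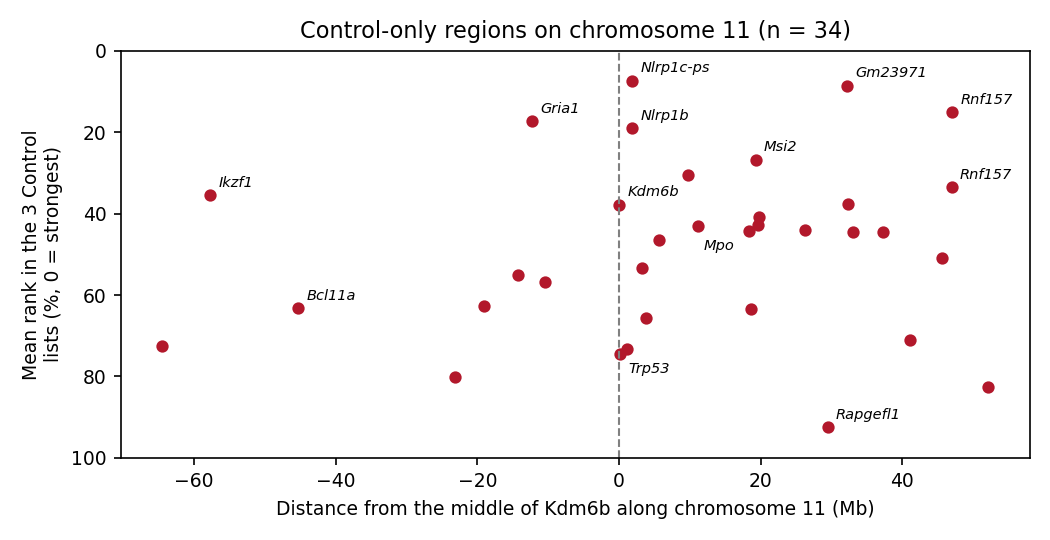
The 34 Control-only regions on chromosome 11 by distance from the middle of Kdm6b (Mb, dashed line at 0) and mean rank over the 3 Control lists (percent, 0 at the top being the strongest). Italic labels give the nearest gene; the regions at Nlrp1c-ps and Nlrp1b are the strongest within 10 Mb of Kdm6b, and the region in Kdm6b has a mean rank of 37.8%.

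Other regions among the 10 best-ranked lay on chromosomes 1, 3, 4 and 11. Rank 2 was held by chr11:101645282-101645884, with a −log10 q of 25.6, 49.1 and 183.7, next to the small nuclear RNA gene Gm23971, which had 0 counts in all 6 RNA libraries. Rank 3 was held by chr11:116389163-116389655 in Rnf157, a ubiquitin ligase gene, with 21.0, 29.5 and 91.1. A list titled 6bKO had a peak 241 bp from this one. A weaker Control-only region, at rank 26, was also nearest to Rnf157. Rnf157 RNA was 19.0, 12.7 and 18.2 CPM in Control against 5.59, 7.85 and 14.4 in the Kdm6b-KO libraries (log2 fold change -0.83, edgeR adjusted p = 0.291), and the groups overlapped.

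Rank 4 was held by chr11:57176022-57176273 in Gria1, a glutamate receptor subunit gene with at most 12 counts in any RNA library. Its −log10 q was 46.3, 20.2 and 47.1, and its rank within the list was 4.18% in Control 1, 26.1% in Control 2 and 21.6% in Control 3. Rank 5 was held by chr3:152314598-152315093 in Miga1, a gene for a mitochondrial outer membrane protein, with 46.7, 24.1 and 31.7. Miga1 RNA was 32.6 ± 2.89 CPM in Control against 33.8 ± 7.11 in the Kdm6b-KO libraries (SD, n = 3 each, edgeR adjusted p = 0.946). The regions of rank 7, 9 and 10 lay nearest to the noncoding genes Gm5547, 4930440C22Rik and Gm16287. None of these 3 was called, and of them only Gm16287 had enough counts to test (adjusted p = 0.434).

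The RNA of genes near Control-only regions was then compared between Kdm6b-KO and Control. Within 50 kb of a region lay 1217 counted genes, of which 682 were abundant enough to test. Of these, 6 were called at an adjusted p under 0.05 by edgeR's quasi-likelihood test (0.88%), all 6 higher in Kdm6b-KO, against 0.461% of all 15185 tested genes, of which 37 were higher (0.244%) and 33 lower (0.217%). The median log2 fold change of the 682 was 0.0089, against -0.0012 over all tested genes, and 349 were positive and 333 negative. At an unadjusted p under 0.05 there were 117 (17.2%), against 14.8% of all tested genes. Groups did not overlap for 150 (22%), against 20.5%. Genes linked in the same way to regions found only in lists titled 6bKO were called in 20 of 2176 (0.919%), and those linked to regions in all 6 lists in 52 of 12875 (0.404%).

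The count rested on single libraries. Without Control replicates 1, 2 and 3 it was 32, 3 and 11, and without Kdm6b-KO replicates 1, 2 and 3 it was 12, 3 and 2. The 32 comprised 15 higher and 17 lower genes, so the uniform direction of the 6 did not hold there, nor with DESeq2, which called 16 higher and 17 lower. On chromosome 11, 2 of 73 linked genes were called (2.74%), against 2.41% of all tested genes there. On the other chromosomes it was 4 of 609 (0.657%), against 0.256%. Taking only the gene nearest to each region, 418 genes of which 288 were tested, 5 were called (1.74%, against 0.461% of all tested genes), all 5 higher in Kdm6b-KO. With DESeq2 this was 9 higher and 8 lower, and without Control replicate 1 it was 7 higher and 10 lower.

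Besides Nlrp1b, the 6 called genes were Gm18860, Rapgefl1, Mpst, Plxnd1 and Gramd4. Gm18860, a pseudogene on chromosome 8, had 0.921, 0.635 and 0.219 CPM in Control against 12.6, 14.9 and 15.6 in the Kdm6b-KO libraries (log2 fold change 4.73, SE 0.47, adjusted p = 0.000208). It lay 14.2 kb from the region of rank 14, chr8:71719244-71719686 in Fcho1, and kept its call in all 13 alternatives. Rapgefl1, a gene related to Rap exchange factors on chromosome 11, had 3.84, 2.54 and 2.85 against 11.4, 18.7 and 19.2 CPM (log2 fold change 2.43, adjusted p = 0.00323). Its region, chr11:98851340-98851792, was among the weakest members, with a mean rank of 92.5%. The call of Rapgefl1 was lost without Kdm6b-KO replicate 3 (adjusted p = 0.0516, range 2.47e-08 to 0.0516).

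Mpst, a sulfurtransferase gene on chromosome 15, had 1.23, 0.762 and 1.24 CPM in Control against 6.29, 4.25 and 8.31 in the Kdm6b-KO libraries (log2 fold change 2.53, adjusted p = 0.0255). Its region at chr15:78412950-78413535 had a −log10 q of 13.1, 7.18 and 12.4. Gramd4, a gene with a GRAM domain on the same chromosome, had 14.3, 13.2 and 11.2 against 25.9, 34.5 and 38.7 CPM (log2 fold change 1.36, adjusted p = 0.0265). Plxnd1, a semaphorin receptor gene on chromosome 6, had 4.30, 5.46 and 5.99 against 14.4, 16.3 and 15.6 CPM (log2 fold change 1.55, adjusted p = 0.0323). Their regions lay inside the genes, at chr15:86105017-86105725 for Gramd4 and chr6:115973230-115973597 for Plxnd1. In all 3 genes every Kdm6b-KO library was above every Control library.

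The calls of these 3 genes depended on single libraries. Without Kdm6b-KO replicates 2 and 3 and Control replicate 2, adjusted p was 0.0547, 0.222 and 0.0937 for Mpst, 0.155, 0.228 and 0.0757 for Gramd4 and 0.173, 0.199 and 0.0937 for Plxnd1. Gramd4 was also lost without Control replicate 3 (0.0587) and Plxnd1 without Kdm6b-KO replicate 1 (0.0584), and limma-voom called none of the 3 (0.0869, 0.0518 and 0.0608). Their adjusted p over the 13 alternatives was 0.000168 to 0.222 for Mpst, 0.000139 to 0.228 for Gramd4 and 0.000307 to 0.199 for Plxnd1. Nlrp1b and Gramd4 each overlap 2 other annotated genes and Mpst overlaps 1, and counts of overlapping genes may be mixed.

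**Figure D5:**
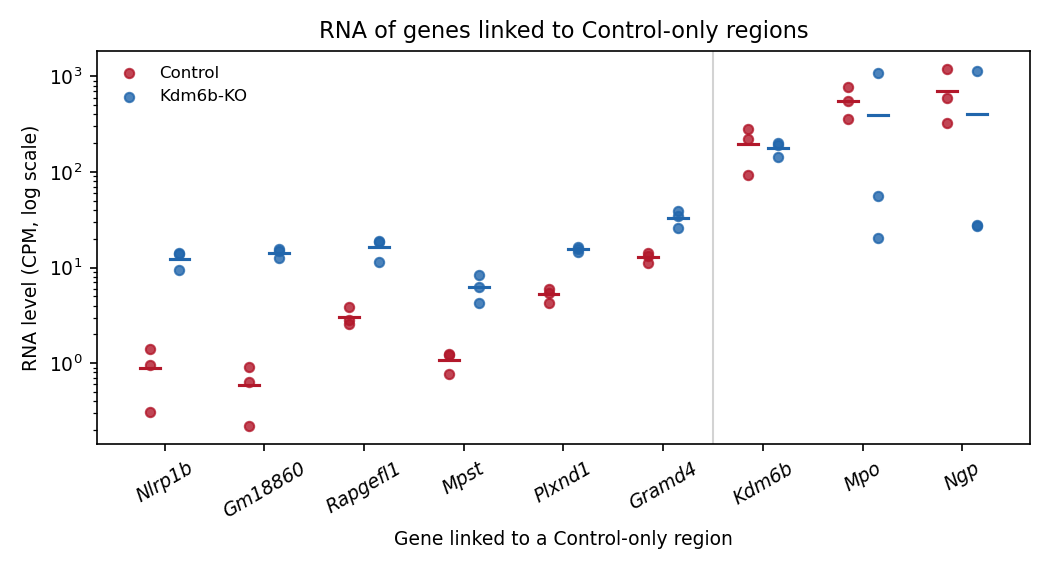
RNA level in CPM on a log axis in each library for the 6 called genes linked to a Control-only region (left of the grey line) and for Kdm6b, Mpo and Ngp, which were not called. Points are libraries and bars are group means (n = 3 each); in the 6 called genes every Kdm6b-KO library lies above every Control library.

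Genes with a Control-only region at the promoter differed widely in RNA level. Of the 19 genes whose promoter windows were overlapped, 9 were abundant enough to test, and 1, Nlrp1b, was called, against 0.461% of all tested genes. Among the 9, 6 had a positive log2 fold change and 3 a negative one, against 7574 and 7611 of all tested genes. Mpo, which encodes a peroxidase of myeloid granules, had its region at chr11:87793238-87794174, with a −log10 q of 3.98, 20.9 and 45.2. Mpo RNA was 772.8, 356.9 and 547.0 CPM in Control against 1094, 55.9 and 20.3 in the Kdm6b-KO libraries. Kdm6b-KO replicate 1 was above the Control libraries and the other 2 were below them. Mpo and Ngp are themselves among the 8 neutrophil genes summed above, so a likeness to that sum is partly built in. Mpo did not pass (adjusted p = 0.923), but did without Kdm6b-KO replicate 1 (adjusted p = 0.00963, range 0.00963 to 0.999). In bulk RNA, fewer cells of a type and less RNA per cell cannot be told apart.

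Slc25a39, a mitochondrial carrier gene, had its region at chr11:102407248-102407814, with the summit 19 bp upstream of the start. Its RNA was 25.7 ± 11.5 CPM in Control against 37.8 ± 11.9 in the Kdm6b-KO libraries (SD, n = 3 each, edgeR adjusted p = 0.458). Hdac7, a histone deacetylase gene with a region at chr15:97844479-97845081, had 34.0 ± 6.69 and 55.2 ± 15.7 CPM (edgeR adjusted p = 0.200). Frrs1 had 400.8 ± 147 and 296.2 ± 10.6 CPM (adjusted p = 0.413). Trim10, an erythroid ubiquitin ligase gene, had 19, 5 and 14 counts in Control and 8, 4 and 1 in Kdm6b-KO, too few to test. Pram1, an adaptor gene of myeloid cells, had at most 5 counts in any library. Cd300c, a receptor gene of myeloid cells, had at most 2, and Sh2d1b1, an adaptor gene of natural killer cells, at most 10. Trim10, Pram1, Cd300c and Sh2d1b1 thus had a promoter peak in all 3 Control lists and RNA below the level tested.

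Of 140 genes on lists of blood cell markers and regulators that had a position, tested or not, 12 lay within 50 kb of a Control-only region (8.57%). This share was 3.36% of all counted genes with a position and 5.01% of the tested ones. None of the 12 HSC marker genes was among them, and none of the 12 linked genes was called. The 4 listed genes that were called, the immediate-early genes Fos, Fosb, Dusp1 and Ppp1r15a, lay near none of the regions. Among transcription factors of HSCs, Ikzf1 had a region at chr11:11729127-11729542, Bcl11a at chr11:24136146-24136553 and Runx1 at chr16:92764483-92765122, all inside the gene. Ikzf1 RNA was 143.2 ± 13.3 CPM in Control against 129.9 ± 11.2 in the Kdm6b-KO libraries, Bcl11a 218.5 ± 41.2 and 199.2 ± 34.8 CPM, and Runx1 101.6 ± 30.5 and 109.6 ± 12.0 CPM (SD, n = 3 each, edgeR adjusted p = 0.760, 0.810 and 0.857).

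Ezh2, the catalytic subunit of Polycomb repressive complex 2, had a region at chr6:47565424-47566000 inside the gene. Ezh2 RNA was 134.7, 98.5 and 81.8 CPM in Control against 63.0, 65.3 and 70.0 in the Kdm6b-KO libraries, and the groups did not overlap, yet it did not pass over all genes (log2 fold change -0.66, SE 0.21, adjusted p = 0.168). Itga4, an adhesion receptor subunit, had a region at chr2:79259279-79259690, at rank 27, and 244.7 ± 11.9 and 185.8 ± 40.0 CPM (SD, n = 3 each, edgeR adjusted p = 0.373). Cdkn1a, a cell cycle inhibitor, lay 13.1 kb from a region with a −log10 q of 4.12, 27.7 and 43.1, and Ccnd3, a D cyclin, 17.8 kb from another. Neither passed (adjusted p = 0.705 and 0.465). Itga2b, a platelet integrin gene, lay 45.5 kb from the region at Slc25a39 (adjusted p = 0.452). Ngp, at the widest region, had 1205, 323.8 and 601.1 CPM in Control against 1151, 27.7 and 26.9 in the Kdm6b-KO libraries, so that here too Kdm6b-KO replicates 2 and 3 were below every Control library and replicate 1 was not. Ngp passed only without Kdm6b-KO replicate 1 (adjusted p = 0.00633, range 0.00633 to 0.976, against 0.878 with it). For Mpo and Ngp, the part of the neutrophil content in these values was not tested.

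Among the nearest genes with a known symbol, those of highest RNA level were Tacc1, Angpt1, Notch2, Ngp, Klf13, Tkt, Mpo, Nsd3, Trp53 and Foxo3, and none of them was called. Tacc1, a gene for a centrosomal protein, had 931.0, 2540 and 1445 CPM in Control against 860.8, 1034 and 1029 in the Kdm6b-KO libraries (adjusted p = 0.291). Angpt1, the ligand of the receptor Tek, held a weak region at chr15:42523182-42523748 and had 938.0 ± 26.7 and 776.0 ± 37.3 CPM (SD, n = 3 each, edgeR adjusted p = 0.558). Notch2 held one at chr3:98061399-98062049 and had 423.9, 1277 and 782.6 against 495.6, 632.6 and 540.3 CPM (adjusted p = 0.443). Trp53, on chromosome 11 near Kdm6b, held one at chr11:69589289-69589561 and had 427.4 ± 67.4 and 458.1 ± 47.4 CPM (SD, n = 3 each, edgeR adjusted p = 0.863). Control replicate 1 had the lowest level of the Control libraries for Tacc1 and Notch2. Without it Tacc1, Notch2 and Nsd3 passed, with adjusted p of 0.0365, 0.0484 and 0.0387, each the lowest of their alternatives, whose highest were 0.802, 0.942 and 0.824.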

How the data were processed

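The HSC gate, per the labels' protocols, was Lin-, cKit+, Sca1+, CD150+, CD48-. The authors deposited raw read counts per Ensembl gene for 6 RNA libraries. Per the submitters' processing notes, reads were handled with STAR 2.0.4, featureCounts 1.4.5, HTSeq 0.8.0 and Partek 6.6 (RNA) or cutadapt 1.16, BWA 0.7.16a and MACS2 (ATAC), on mm10. Strand setting, annotation release, duplicate handling and any shift of read ends were not given in the sources used here. Each deposited ATAC list holds 1 library's peaks, with the authors' fold enrichment as a ratio and p and q as −log10 values; these were used only to describe, rank or filter peaks within a list. The deposited peak score is 10 times the −log10 q and was not used. The other 8 of 20 samples were not analysed here.

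Peaks sharing at least 1 bp were merged. Gene spans came from a GRCm38.p6 table matched by symbol (36179 of 49671 gene IDs, 89.7% of tested genes). Distances to spans were used where the promoter table gives no start. Counts of unassigned reads were left out; 16.5% to 19.7% of reads were assigned to genes. The test across genes was that of edgeR 4.0.16 (R 4.3.3) after filterByExpr and TMM: robust glmQLFit and glmQLFTest on genotype, two-sided, Benjamini-Hochberg over 15185 genes, threshold 0.05. A positive log2 fold change means a higher level in Kdm6b-KO. CPM use TMM-scaled library sizes, and 3 counts were 0.148 to 0.461 CPM. The smallest chi-square per degree of freedom between replicate libraries was 16.8, so none was counted as a duplicate. P-values measure the spread between these libraries. Intervals cover counting error only. The code was tested on simulated data.

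The regions, gene lists and tests were chosen with earlier results of these data known. A few genes that the rule would name are not reported here. Genes named are the nearest to the 10 best-ranked regions, linked genes that were called, the 10 nearest genes of highest CPM, linked genes on the lists, Kdm6b and Kdm6a; promoter genes and Rnf157's second region were chosen after their values were seen. Alternatives used DESeq2 1.42.0, limma-voom 3.58.1, other scalings, no filter, each library left out, and other peak and distance rules.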

Additional observations from a re-analysis of the deposited data

How the results depend on the processing

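The number of Control-only regions was 731 with lists of equal length and 478 to 2289 with each library left out, against 431. With an overlap of at least 0.5 of the shorter peak it was 416, with a −log10 q of at least 5 in every list 317, and with no 6bKO-titled peak within 500 bp 389. The share within 1 kb of a gene end (13.0%) became 39.9% for 5 kb, by construction. Called genes numbered 70 in all, 6 linked and 5 nearest. DESeq2 gave 466, 33 and 17, no filter on low counts 576, 35 and 22, limma-voom 42, 3 and 2, and leaving out chromosome 11 genes, an alternative chosen after seeing the data, 19, 2 and 1. Leaving out each library gave 20 to 519, 2 to 32 and 1 to 17. Within 100 kb, 10 linked genes were called, 7 higher and 3 lower. Scaling by library totals moved the median log2 fold change of all genes to 0.147 and called 70 higher and 30 lower genes, against 37 and 33. The cause of these differences was not tested. With the replicate block, 88 genes were called in all, 6 linked (4 higher, shared with the main test, and 2 lower) and 4 nearest (3 higher and 1 lower), and Gramd4 and Plxnd1 lost their call (adjusted p = 0.0561 and 0.0536); same-numbered libraries deviated with correlations of 0.0324, 0.161 and -0.127, so the numbers were not taken as pairs.

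Of 380 values of named genes under alternatives, 344 kept their direction and side of the threshold, 19 lost and 5 gained a call, and 12 changed sign, none of them a called gene. With library totals, log2 fold changes were 0.014 for Bcl11a, 0.0036 for Ikzf1 and 0.0092 for Kdm6b, against negative main values. Leaving out each library, they ranged from -0.23 to 0.033 for Bcl11a (also 0.0028 without Kdm6b-KO replicate 3), -0.43 to 0.022 for Foxo3, -0.49 to 0.19 for Kdm6b, -0.081 to 0.21 for Miga1 (also -0.0036 without Control replicate 2), -3.88 to 0.039 for Mpo, -0.059 to 0.37 for Runx1 and -0.0068 to 0.22 for Trp53. The unknown ATAC depth limits every count of regions.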

Other observations

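Of the 418 genes nearest to a Control-only region, 13 were nearest to 2 regions and none to more. They included Zfp36l2, an RNA-binding protein that promotes messenger RNA decay, Cited2, a transcriptional coregulator of HSCs, Psap, the precursor of saposins in lysosomes, Nrf1, a transcription factor of mitochondrial genes, and Med13l, a Mediator kinase module subunit. These 5 were chosen after their values were seen. None of the 13 was called. Zfp36l2 RNA was 305.3, 121.7 and 156.1 CPM in Control against 216.7, 280.4 and 187.0 in the Kdm6b-KO libraries (edgeR adjusted p = 0.774). Psap had 232.4, 177.4 and 100.5 against 218.2, 165.4 and 316.3 CPM (adjusted p = 0.529), and Med13l 276.9, 155.9 and 120.4 against 123.4, 143.7 and 113.6 CPM (adjusted p = 0.372). In all 3 the groups overlapped.

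Zfp213, a zinc finger gene linked to a Control-only region, had 2.76, 2.41 and 3.14 CPM in Control against 7.43, 7.19 and 10.2 in the Kdm6b-KO libraries (log2 fold change 1.57, edgeR adjusted p = 0.0800). Zfp644, also linked, had 245.4, 189.7 and 128.5 against 100.3, 107.2 and 71.6 CPM (log2 fold change -1.01, adjusted p = 0.0979). Neither passed, and in both the groups did not overlap, as in 20.5% of all tested genes. They were chosen after their values were seen.

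Adjacent Control-only regions were rarely close to each other, with 13 neighbouring pairs within 50 kb and 1 within 10 kb.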
